A study of Mus musculus with 4 samples.

Results

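The genes described here take up vitamin B12 (cobalamin) in the gut or handle it inside cells. There are 10 of them: Cubn, Amn, Lrp2, Cd320, Tcn2, Lmbrd1, Mmaa, Mmachc, Mmut (listed as Mut in older annotation) and Mtr. They were picked by gene symbol, with it already known from these arrays that Cubn was very low in CF mice, so the contrasts of CF with WT are given as a description. The array annotation names 23 of its 45101 probe sets for these genes. A probe set entered ratios only if it reached the median signal of an array on at least 1 array, which left 17 of the 23, for 9 of the 10 genes (12259 genes were left in all). Lrp2 and the 6 dim probe sets are given by their signals alone.

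Gene expression in mouse small intestine was measured on 4 Affymetrix arrays, 1 array for each of 4 groups. The untreated groups were wild type littermates (WT control) and mice with the cftr-tm1Unc null allele (CF control), and the treated groups, WT + lubiprostone and CF + lubiprostone, were mice of the same genotypes given lubiprostone. This drug, a bicyclic fatty acid that stimulates fluid secretion in the gut, was gavaged at 10 µg/kg daily for 2 weeks. The labels give the strain as C57BL/6 for every group, and the methods as congenic C57BL/6J. WT and CF mice alike received Peptamen, a liquid diet, in place of solid chow after weaning. Ages are not given in the sources used here. RNA of the entire small intestine was pooled from 7 mice in the treated WT group, 10 in the untreated CF group and 8 in the treated CF group, while for the untreated WT group one source gives 10 mice and another 8. Since each group is 1 pool on 1 array, the spread between mice of a group is unknown, and no difference given here was tested.

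Dietary cobalamin reaches the ileum bound to intrinsic factor. There the complex binds cubilin, a large extracellular protein with no membrane anchor of its own. Amnionless, the product of Amn, holds cubilin at the apical membrane and carries the signals for endocytosis, and the pair is called cubam. Megalin, the product of Lrp2, works with cubilin in the kidney. Inside the cell the vitamin leaves the lysosome through LMBRD1. It travels in plasma bound to transcobalamin (Tcn2) and enters other cells through the receptor CD320. MMACHC trims the cofactor in the cytosol, MMAA helps to load it onto methylmalonyl-CoA mutase (Mmut) in mitochondria, and methionine synthase (Mtr) uses it in the cytosol.

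The promoters of the cubam genes are shown because Cubn and Amn were the members with the largest ratios between genotypes. Each line holds the 250 bases before the RefSeq start site, build GRCm38.p6, read 5′ to 3′ on the strand of the gene. For Cubn the window is chr2:13491877-13492126 on the minus strand, and for Amn it is chr12:111270846-111271095 on the plus strand. Capitals mark the motif matches described next.
Cubn: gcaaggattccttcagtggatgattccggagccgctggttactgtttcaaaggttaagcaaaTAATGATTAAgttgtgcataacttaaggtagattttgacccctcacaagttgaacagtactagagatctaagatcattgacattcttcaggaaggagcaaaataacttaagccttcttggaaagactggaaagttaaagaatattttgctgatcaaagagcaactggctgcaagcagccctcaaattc
Amn: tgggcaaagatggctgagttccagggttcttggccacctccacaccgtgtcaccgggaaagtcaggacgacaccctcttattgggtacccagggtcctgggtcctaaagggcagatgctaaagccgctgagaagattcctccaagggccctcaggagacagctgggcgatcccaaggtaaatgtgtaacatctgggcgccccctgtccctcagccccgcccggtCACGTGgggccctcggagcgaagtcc
The capitals in Cubn match the core of the binding motif of HNF1 factors, 188 to 179 bases before the start site, and a match on either strand was found in 0.387% of 32851 promoter windows of the same length. In Amn the capitals are the E-box CACGTG, 26 to 21 bases before the start site, a palindrome found in 6.02% of windows. Both motifs were picked after the sequences had been read. Motifs of other factors known from gut epithelium were searched on both strands. The motif AGATAA of the zinc finger factors Gata4 and Gata6 was found in 9.99% of windows, the HNF4 motif CAAAGTCCA in 0.384% and the CDX motif TTTATG in 10.8%, and none of them in the window of Cubn or Amn. The RefSeq table held 11 windows for 8 of the 10 genes. Lrp2 was the only further member with a match to any of these motifs, TTTATG at 67 to 62 bases before its start site.

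Signals are given in arbitrary units, and each array had been scaled to the same trimmed mean by the software of the authors. Array medians lay between 109 and 124. A signal below its array's median was treated as dim, a cutoff chosen without detection calls. For a probe set, a fold that involves 1 dim signal is written as at least the value obtained with that signal raised to the median. No fold of a probe set is given between 2 such signals. Mean folds over the 2 probe sets of Cubn that involve dim signals are given as measured and with these raised to the median. Cftr, the targeted gene, was checked first. Its probe set 1420579_s_at had signals of 2505 and 2226 in the WT pools against 620.2 and 715 in the CF pools, and 1427767_a_at had 302 and 159 against 47.3 and 43.3. Both probe sets were lower in the pools labelled CF. Where they lie relative to the altered part of the gene was not examined. Villin (Vil1), a marker of enterocytes, had mean signals between 20316 and 24067 on the 4 arrays. Of 10 marker genes of the kidney, where cubilin and megalin are also abundant, 7 stayed below the median on every array, Slc34a1 and Umod among them. The summed signal of the other 3 (Aqp2, Slc5a2 and Kap) was 424 and 289 in the WT pools and 265 and 272 in the CF pools, untreated first. Of these, Aqp2 counted as at least 2-fold lower in untreated CF as measured, with 151 and 7.22 in the WT pools and 27.3 and 20.7 in the CF pools, or at least 1.38-fold lower with the dim signal raised to the median. The part of kidney tissue in the Cubn ratios was not tested.

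Cubn, the receptor itself, was high in both WT pools and near or below the array median in both CF pools. Its probe set 1426990_at had a signal of 5546 in the untreated WT pool and 3983 in the treated one, against 103 in the untreated CF pool and 85.7 in the treated one. The probe set 1452270_s_at had 8597 and 6059 in the WT pools, untreated first, against 156 and 38.4 in the CF pools. Of the 4 CF values only the 156 lay above its array's median. In RNA of a whole organ, fewer cells of a type and less RNA per cell cannot be told apart.

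Without treatment, CF mice had 54.5-fold less Cubn signal than WT mice as measured (log2 ratio -5.77, SD 0.03 between the 2 probe sets). Raising dim signals to the median gave 52.9-fold. Of all 12259 genes, Cubn had the lowest ratio. The treated pair has no array in common with the untreated pair. There the first probe set was at least 33.3-fold and the second at least 50.7-fold lower in CF. The mean over both was 85.6-fold as measured (log2 ratio -6.42, SD 1.25) and 41.1-fold with dim signals raised to the median. Either way the Cubn ratio was again the lowest of the 12259.

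Amn, the membrane anchor of cubilin, was also lower in CF, by less. Its single probe set, 1417920_at, had signals of 4025 and 4041 in the untreated and treated WT pools, and of 1276 and 1435 in the CF pools in the same order. The WT values were nearly equal, and both CF values lay below them and far above the array medians. Without treatment the CF signal was 3.15-fold lower (log2 ratio -1.66), and with treatment 2.82-fold lower (-1.49). Counted from the lowest ratio, Amn stood at place 218 of 12259 genes in the untreated pair and at place 190 in the treated pair.

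Lrp2, which encodes megalin, stayed below the median on all 4 arrays with all 3 of its probe sets. The highest of the 3 signals was 65.5 and 76.2 in the WT pools and 85.1 and 59.2 in the CF pools, untreated first. These signals gave no level that could be compared between pools. Cblif, the gene of intrinsic factor, was likewise dim, with 65.7 in both WT pools and 10.7 and 58.9 in the CF pools.

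**Figure D1:**
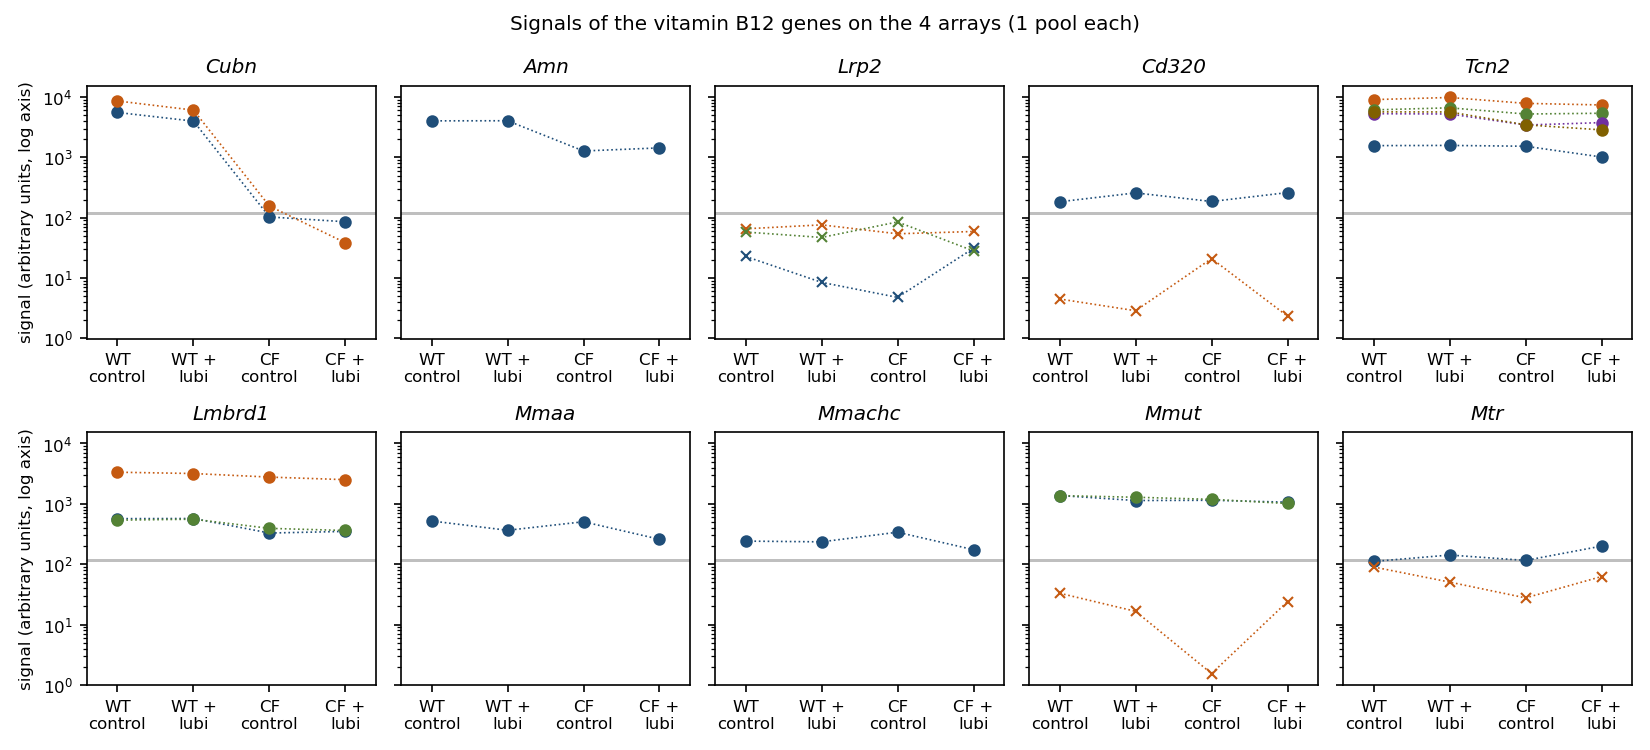
Signals of the 23 probe sets of the 10 vitamin B12 genes on a log axis in arbitrary units, with 1 panel per gene and 1 value per pool (lubi, lubiprostone). Circles are probe sets that entered ratios, crosses are those below the median on every array, lines join the 4 values of a probe set, and the grey band spans the 4 array medians. Cubn lies at 5546 and 8597 in the untreated WT pool and at 103 and 156 in the untreated CF pool, and Amn at 4025 and 1276. The circles of the other genes differ less between these pools, while some crosses, all at dim signals, differ more than Amn.

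Among the genes of lysosomal release and plasma transport, differences were smaller. Tcn2, the plasma carrier of the vitamin, had 5 probe sets, of which 4 carry the suffix _x_at that marks possible cross-hybridization. The one without it, 1448200_at, had signals of 5286 and 5231 in the WT pools, untreated first, and of 3431 and 3766 in the CF pools. All 5 probe sets were lower in CF, both without and with treatment. The mean log2 ratio of CF to WT was -0.36 (SD 0.29, 5 probe sets) in the untreated pair and -0.56 (SD 0.27) in the treated pair, or 1.28-fold and 1.48-fold lower.

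Lmbrd1, which encodes the lysosomal exporter, had ratios in the same direction. Its probe set 1451622_at had signals of 3346 and 3180.2 in the WT pools and of 2777 and 2516 in the CF pools, untreated first. Signals of the other 2 probe sets lay between 538 and 572 in the WT pools and between 328 and 393 in the CF pools. All 3 were lower in CF in both pairs, with a mean log2 ratio of -0.50 (SD 0.27) without and -0.56 (SD 0.19) with treatment. For comparison, the SD of this ratio among the probe sets of a gene had a median of 0.24 in the untreated and 0.23 in the treated pair over 5569 genes. That SD describes probe sets on the same arrays and says nothing of the spread between mice.

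Cd320, the receptor that takes transcobalamin into other cells, had nearly the same signal in both genotypes. Its probe set 1417100_at had 184 in the untreated WT pool and 186 in the untreated CF pool, and 258 and 261 in the treated pools. The ratio of CF to WT was 1.01 in both pairs. Its other probe set lay between 2.33 and 21.1 and gave no usable level.

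For cofactor processing and for the enzymes that use it, ratios of CF to WT were nearer 1 than those of Cubn and Amn. Mmaa had signals of 520.4 and 365 in the WT pools and of 506 and 259 in the CF pools, untreated first. Mmachc had 241 and 235 in the WT pools, 339 in the untreated CF pool and 174 in the treated one, so its highest and lowest values were both in CF. The ratio of CF to WT was 1.40 without treatment and 0.741 with it for Mmachc, and 0.971 and 0.709 for Mmaa.

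Mmut, the mitochondrial mutase gene, had 2 usable probe sets with like values. For 1416838_at the signals were 1374 and 1136 in the WT pools and 1146 and 1066 in the CF pools, untreated first, and for 1448486_at they were 1369 and 1287 against 1188 and 1014. The log2 ratio of CF to WT was -0.23 (SD 0.04) in the untreated and -0.22 (SD 0.18) in the treated pair. Its dim probe set lay between 1.54 and 33.1. Mtr, the methionine synthase gene, had signals near the array medians, 111 and 142 in the WT pools and 116 and 199.7 in the CF pools, untreated first. With treatment the ratio of CF to WT was 1.41. No fold is given without treatment, since the 111 lay below its array's median and raising it turned the ratio from 1.04 to 0.933. Its second probe set lay below the median throughout, between 27.7 and 90.0.

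**Figure D2:**
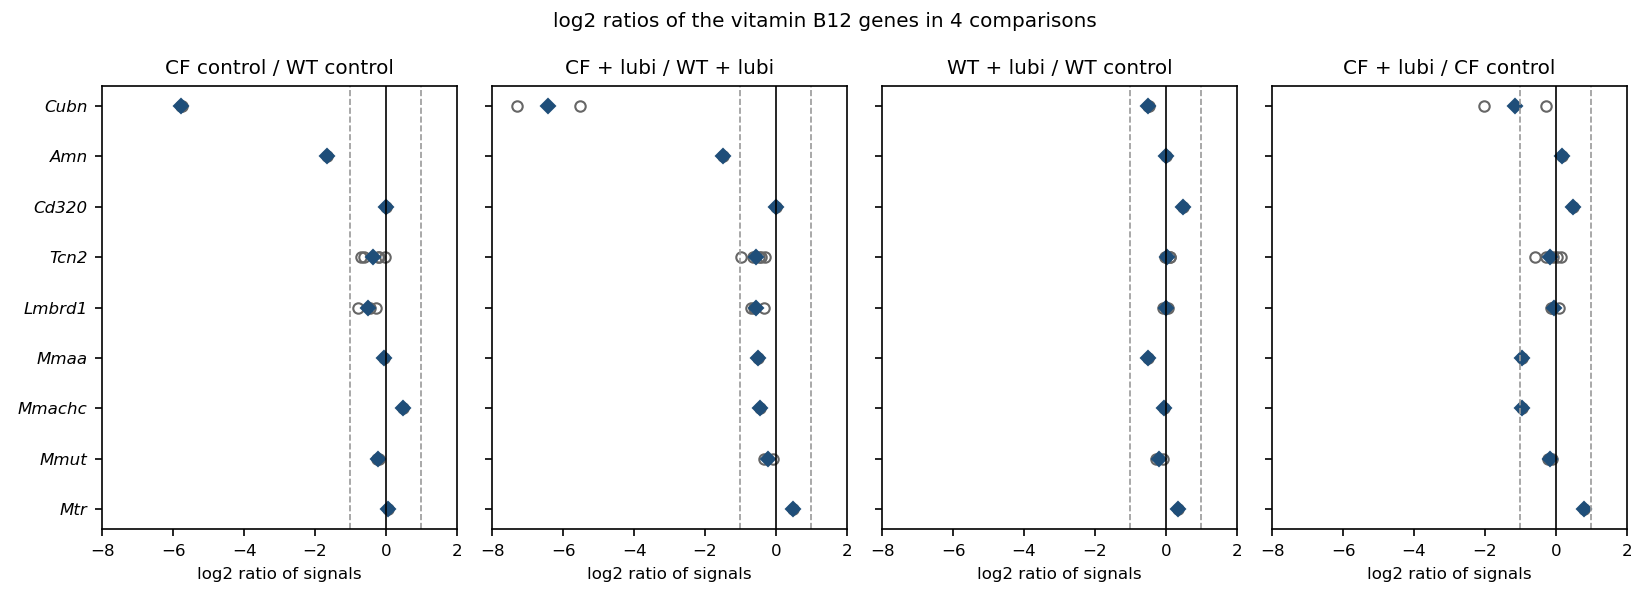
log2 ratios of signals for the 9 vitamin B12 genes with a usable probe set, in 4 comparisons (lubi, lubiprostone). Open circles are probe sets, diamonds are their mean and dashed lines mark 2-fold. Cubn lies at -5.77 in the untreated CF to WT panel and at -6.42 in the treated one, Amn at -1.66 and -1.49, and in these panels every other gene lies within 2-fold.

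In the untreated pair, 2 of the 9 genes, Cubn and Amn, were at least 2-fold lower in CF, and both were also past 3-fold. Among all genes that could be counted, 4.84% were at least 2-fold lower and 1.82% at least 3-fold lower. No member was at least 2-fold or 3-fold higher, where 2.8% and 1.16% of all genes were. Ratios were below 1 for 6 of the 9 members and for 52.3% of all genes, with median log2 ratios of -0.23 and -0.02. If arrays were scaled to the same median instead, the median of all genes moved to 0.16 and that of the members to -0.05. Because this contrast was known when the members were picked, nothing is read from these counts.

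In the treated pair, Cubn and Amn were again the 2 members at least 2-fold lower in CF, where 3.41% of all genes were. Cubn alone was past 3-fold, where 1.25% were. None was higher by at least 2-fold, against 3.22% of all genes, or 3-fold, against 1.27%. Ratios were below 1 for 7 of the 9 members, with a median log2 ratio of -0.50, beside 0.00 for all genes. Of 11339 genes that could be counted in both pairs, 182 were at least 2-fold lower in CF in both, which was 37.4% of those lower in the untreated pair and 55.5% of those lower in the treated pair.

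**Figure D3:**
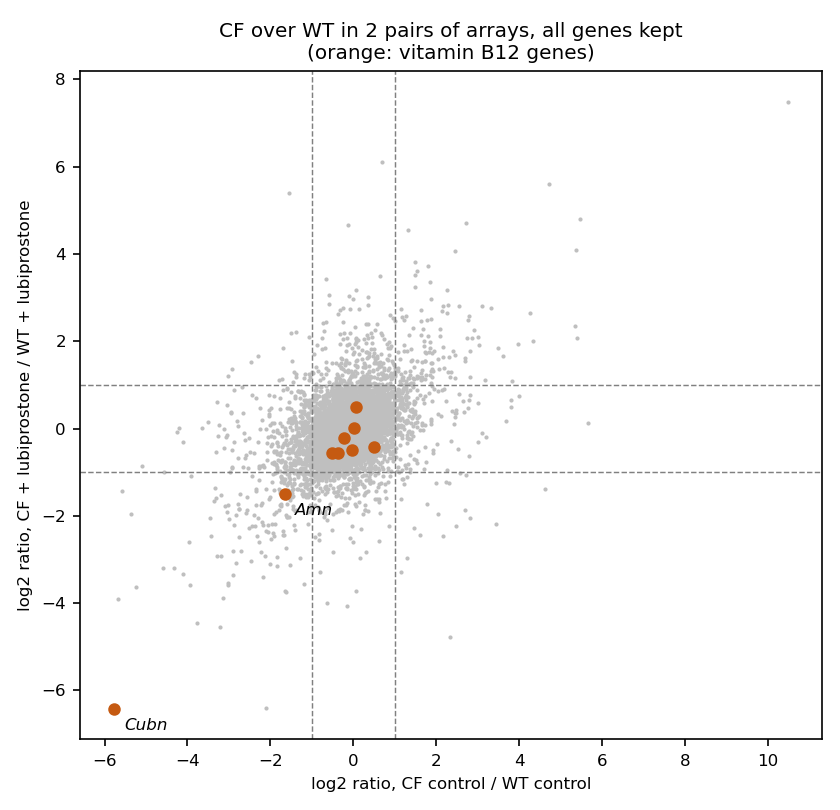
log2 ratio of CF to WT in the untreated pools (horizontal) and in the lubiprostone pools (vertical) for all 12259 genes in grey and the 9 vitamin B12 genes in orange, with dashed lines at 2-fold. Cubn sits in the lower left corner at -5.77 and -6.42, Amn lies at -1.66 and -1.49, and the 7 others lie inside the dashed lines.

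With lubiprostone, all 9 members lay within 2-fold of the untreated pool in WT mice, near the share over all genes. Among all genes, 1.42% were at least 2-fold lower with the drug and 1.35% higher, and 0.573% and 0.488% were past 3-fold. Cubn signals were 1.39-fold and 1.42-fold lower on its 2 probe sets. Amn had a ratio of 1.004. Mmaa was 1.43-fold lower, and Cd320 was 1.40-fold higher. The median log2 ratio was -0.0049 for the members and -0.0041 for all genes.

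In CF mice, the cubam signals with lubiprostone stayed far below those of the WT pools. Amn had a ratio of 1.12 to the untreated CF pool. Cubn counted as the 1 member at least 2-fold lower, at 2.21-fold as measured (log2 ratio -1.14, SD 1.24), where 2.15% of all genes were. Its probe sets did not give like values, since 1426990_at was below the median on both arrays and 1452270_s_at was at least 1.30-fold lower. With dim signals raised to the median, Cubn was 1.09-fold lower and no member was past 2-fold. None was at least 2-fold higher, against 3.2% of all genes, and none past 3-fold either way, where 0.738% were lower and 0.941% higher.

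Just short of 2-fold in that comparison lay Mmaa and Mmachc, both 1.95-fold lower with the drug, which act on the cofactor before the enzymes. With arrays scaled to the same median their log2 ratios were -1.10 and -1.09, past 2-fold. Mtr was 1.73-fold higher and Cd320 1.40-fold, while Tcn2, Lmbrd1 and Mmut had ratios of 0.897, 0.961 and 0.891. The log2 ratio of the drug in CF minus that in WT was -0.92 for Mmachc, -0.65 for Cubn, -0.45 for Mmaa and 0.44 for Mtr. Those of Cubn and Mtr involve signals below the median. For the remaining members it lay between -0.20 and 0.16, and none of these differences was tested. Both drug comparisons share an array with the untreated CF to WT comparison.

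Pancreatic acinar genes, which mark adhering pancreas, were lower in both treated pools. Of 7 measured, 6 were at least 2-fold lower with lubiprostone in each genotype, where 1.42% of all genes were in WT and 2.15% in CF. Their summed signal was 26405 without and 4007 with the drug in WT, and 27781 and 7915 in CF. Between genotypes, none of the 7 was at least 2-fold different without treatment, where 4.84% of all genes were lower and 2.8% higher. With treatment all 7 had ratios of CF to WT above 1, with a median log2 ratio of 1.06. Of these, 4 were at least 2-fold higher in CF (Cpa1, Ctrb1, Prss2 and Cel), where 3.22% of all genes were. The part of this tissue in the ratios of the drug, and in those of CF to WT with treatment, was not tested.

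Other genes of B12 handling were set beside the members. Of 9 measured, none was 2-fold different in any of the 4 comparisons (8 could be counted for lubiprostone in WT mice). With 4.84% of all genes lower and 2.8% higher in untreated CF at 2-fold, a count of 0 of 9 is near the share over all genes. Without treatment 7 of them had ratios of CF to WT above 1, with a median log2 ratio of 0.19. Mmadhc, which directs the vitamin to its enzymes, had mean signals of 2648 and 2751 in the WT pools and of 3025 and 2898 in the CF pools, untreated first. Pccb and Pcca, the subunits of propionyl-CoA carboxylase upstream of the mutase, had ratios of CF to WT of 1.25 and 1.08 without treatment, and ratios of treated to untreated CF of 0.676 and 0.737. For Abcd4, the partner of LMBRD1 in lysosomal export, CF to WT ratios were 0.87 without and 0.537 with treatment.

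Cubilin is taken in by clathrin-dependent endocytosis. Of 10 measured genes of its adaptors, clathrin, recycling and related receptors, none was 2-fold different in any of the 4 comparisons, again near the share over all genes. Clcn5, an endosomal chloride transporter gene, came closest, with a ratio of CF to WT of 0.513 with treatment and 0.723 without. The median log2 ratio of CF to WT was -0.04 without and -0.03 with treatment. Ratios in the untreated pair were 0.971 for Cltc, the clathrin heavy chain gene, 0.973 for the light chain gene Clta and 1.13 for Rab11a, a GTPase of recycling endosomes. Dab2, the adaptor that binds amnionless and megalin, had a ratio of 0.8504.

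Because cubilin serves absorption in the ileum, markers of gut regions were set beside it. Of 9 measured genes of ileal enterocytes, 4 were at least 2-fold lower in CF without treatment, where 4.84% of all genes were. Fabp6, the ileal bile acid binding protein gene, was 3.74-fold lower and Mep1a, a brush border protease gene, 3.42-fold. Slc10a2, the bile acid uptake carrier gene, was 2.43-fold lower and Slc51a, a bile acid export gene, 2.003-fold. In the treated pair Fabp6 was 5.51-fold and Mep1a 3.38-fold lower, whereas Slc10a2 had a ratio of 1.11. Counted at 2-fold as measured, 3 genes were lower there (Fabp6, Mep1a and Fgf15), where 3.41% of all genes were. Fgf15 was at least 1.69-fold lower with its dim signal raised to the median. The bile acid receptor gene Nr1h4 was the 1 gene higher, at 2.17-fold, where 3.22% of all genes were. Of the 9 ratios, 5 were below 1 and 4 above. Enpep, a peptidase gene, and Clec2h had ratios of 0.696 and 1.08 without treatment. The summed signal of the 9 was 84322 and 90427 in the WT pools and 54173 and 66007 in the CF pools, untreated first.

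Of 10 proximal genes, 1 was at least 2-fold lower in CF without treatment, the lactase gene Lct at 7.50-fold. Among all genes 4.84% were, so a count of 1 of 10 is near that share. Of 9 general enterocyte genes 2 were, the trehalase gene Treh at 4.13-fold and the peptide transporter gene Slc15a1 at 2.05-fold. Fabp1 and Apoa1, genes of lipid handling in these lists, had ratios of 0.928 and 0.981. In the treated pair Lct and Treh were again lower, by 10.2-fold and 3.08-fold, where 3.41% of all genes were at least 2-fold lower. Cybrd1, an iron reductase gene of the proximal list, was 2.61-fold higher there, where 3.22% of all genes were at least 2-fold higher. Median log2 ratios of the ileal, proximal and general lists were -0.52, -0.15 and -0.20 without treatment and -0.28, -0.03 and -0.41 with it, so the ileal list had the lowest median in the untreated pair only. Cubn had a lower ratio than each gene of the 3 lists in both pairs, and Amn lay within their range. The part of these cell types in the Cubn and Amn ratios was not tested.

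**Figure D4:**
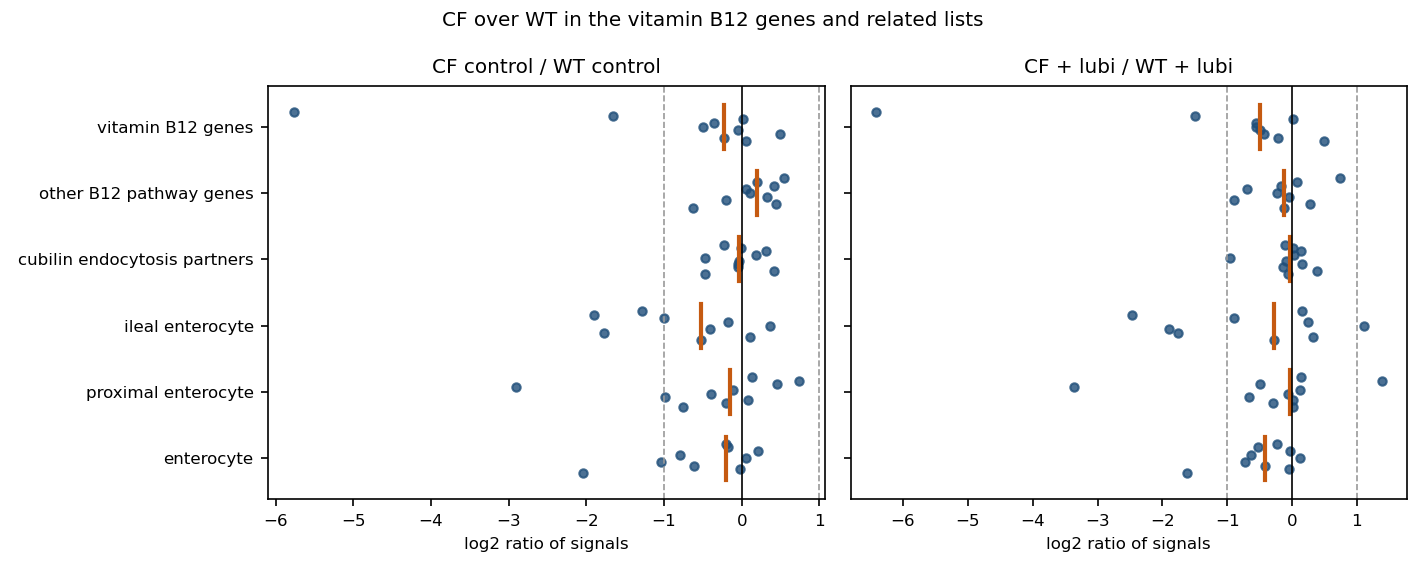
log2 ratios of CF to WT without treatment (left) and with lubiprostone (right; lubi) for the vitamin B12 genes and related gene lists, with 1 point per gene, an orange bar for the median of each list and dashed lines at 2-fold. On the left 4 ileal genes lie at or beyond the lower line, and Cubn lies apart at -5.77.

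Genes with signals most like those of Cubn were sought among the 5912 other genes whose mean signal in the untreated WT pool was at or above the 75th percentile of that array. Likeness was the Euclidean distance between log2 ratios of the 3 other arrays to WT control, with dim signals raised to the median. The nearest were Cyp2b10 at 2.22, Slc5a4a at 2.62, Ugt2b5 at 2.76, Cyp2c55 at 2.88 and Slc5a4b at 3.20. Cyp2b10, a cytochrome P450 gene, had mean signals of 3868 and 2618 in the WT pools and of 283 and 117 in the CF pools, untreated first. Slc5a4a, of a sugar transporter family, had 1822 and 1402 in the WT pools and 118 and 116 in the CF pools. Ugt2b5, a glucuronosyltransferase gene, had 2290 and 1935 against 94.9 and 210.0. All 5 had higher signals in both WT pools than in either CF pool. The search picked for this pattern, since Cubn has it, so nothing is read from it.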

How the data were processed

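Each pool of total RNA was labelled and hybridized to 1 Affymetrix mouse array. Per the labels, the authors obtained signal intensities with GCOS (MAS5), which gives 1 linear intensity per probe set. The deposited table holds no detection calls, and versions and the scaling target are not given in the sources used here. Without the highest and lowest 2% of values, the mean was 500.003 on each array.

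Probe sets were named from the platform annotation, with current symbols found by gene identifier for 34754 of 34958 probe sets with 1 symbol. Those with several symbols (932) or none (9211) were left out. Probe sets below the median on every array were dropped, and a gene's log2 ratio was the mean over those left. Genes were counted at 2-fold, and at the 3-fold threshold of the methods, if a probe set reached the median in either array compared. With 1 array per group no difference was tested, and the number of arrays limits the precision. The steps were tested on simulated data. The 7 alternatives changed the scaling (common median, quantiles), the filter (none, or the 75th percentile), the averaging (linear values, or the probe set with the highest signal) and dim signals (raised to the median).

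The members and the 12 gene lists were chosen with earlier results of these data known. The rule named the members, the 5 genes nearest to Cubn and, of each list, the brightest 3 and up to 5 genes at least 2-fold different between the untreated pools, some of which are left out here. Vil1, Dab2, Abcd4, Cblif, Clcn5, Fgf15, Nr1h4, Cybrd1, Slc34a1, Umod, Cpa1, Prss2, Cel and Bhmt were named outside it, after their values were seen. Of the lists of tissues not shown in the results, Gkn2 of the gastric list was at least 2-fold higher in untreated CF, and of the liver list Ttr was lower and Tat higher. Neither of the 2 adipocyte genes measured was 2-fold different there. Promoters came from RefSeq (GRCm38.p6). Protein sequences were not used here. Python 3.11 was used.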

Additional observations from a re-analysis of the deposited data

How the results depend on the processing

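Over 7 alternatives, 77 of 84 counts and medians of the members stayed within 1.5 times the count, or within the median SD between probe sets of a gene. Without the filter on dim probe sets, 1 member (Cd320) was at least 2-fold higher in the untreated CF pool against WT, and the median log2 ratio was -0.58. The members at least 2-fold lower there were 3 instead of 2, with Mmut added at a log2 ratio of -1.63. Cd320 and Mmut moved through probe sets that lay below the median on every array. For lubiprostone in CF mice, the members at least 2-fold lower were 3 with arrays scaled to the same median and 2 with quantile normalization. They were 2 without the filter and 0 after dim signals were raised to the median, and 1 (Mmut) was at least 2-fold higher without the filter. Shares over all genes were counted in the main setting only, so nothing is read from the counts under the alternatives. Log2 ratios of CF to WT ranged from -5.79 to -5.59 for Cubn and from -1.69 to -1.48 for Amn in the untreated pair, and from -7.30 to -5.36 and from -1.49 to -1.46 in the treated pair. Mmaa turned from -0.04 to 0.14 in the untreated pair with arrays scaled to the same median, and Mtr from 0.06 to -0.82 without the filter. No paired analysis was possible because each group has 1 array.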

Other observations

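Folate and the methionine cycle meet vitamin B12 at methionine synthase, and 11 measured genes of that cycle were set beside Mtr. Slc46a1, the intestinal folate transporter gene, had mean signals of 4563 and 4835 in the WT pools and of 1994 and 2628 in the CF pools, untreated first. It was 2.31-fold lower in CF without treatment and 1.87-fold lower with it. Mthfd2, a gene of mitochondrial folate metabolism, had mean signals of 294 and 404 in the WT pools and of 655 and 937 in the CF pools, and was 2.28-fold and 2.24-fold higher in CF. These were the list's 2 genes at least 2-fold different in the untreated pair, 1 in each direction, where 4.84% of all genes were lower and 2.8% higher. Ahcy, which cleaves S-adenosylhomocysteine, had CF to WT ratios of 0.979 and 1.10, and Cth, an enzyme gene of cysteine synthesis, of 0.659 and 0.846. The median log2 ratio of the list was 0.02 without and -0.03 with treatment. These genes were not tested, with 1 pool per group.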
